A study of Mus musculus with 8 samples.

Results

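A group of 7 transcription factors of the naive state of mouse embryonic stem cells, Esrrb, Tfcp2l1, Tbx3, Nr0b1, Nr5a2, Prdm14 and Gbx2, was followed across the arrays of the series. Every probe set (a group of short probes that reports 1 transcript region) annotated to 1 of these 7 symbols was taken, which gave 18 of the 45037 probe sets left after control probes were set aside; the 7 genes are among 18193 with such a probe set. The 8 arrays, each hybridised with biotin-labelled cRNA from cells grown on gelatin-coated dishes, fall into 4 groups of 2: Rex-1 knockout cells without leukemia inhibitory factor (LIF), J1 wild-type cells without LIF, Rex-1 knockout cells with LIF and J1 wild-type cells with LIF. The labels give 12 hours for the culture without LIF, in a text shared by all 8 arrays. For the knockout arrays titled minus LIF, the text on growth also speaks of added LIF; their titles were followed. Per the series text the 2 arrays of a group are biological replicates; the title of one of them ends in the letter r, and it is called the second array here.

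Naive embryonic stem cells resemble the epiblast of the blastocyst before implantation. LIF binds its receptor and gp130, which activates the kinase Jak1 and the transcription factor Stat3, and Stat3 in turn activates part of the naive network. Tfcp2l1 and Gbx2 are known Stat3 targets, Tbx3 is linked to LIF signalling through PI3 kinase, Esrrb is a nuclear receptor activated by Nanog and held down by Tcf7l1, Nr5a2 binds the Pou5f1 promoter, Nr0b1 (Dax1) is a nuclear receptor without a classical DNA-binding domain that partners Nr5a2 and other receptors, and Prdm14 represses FGF signalling and the de novo DNA methyltransferases. Rex-1 is the product of Zfp42, a zinc finger gene used as a marker of the undifferentiated state.

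The arrays labelled knockout still gave a high Zfp42 signal, 17139 and 16729 without LIF and 17997 and 17282 with LIF, against 18217 and 20563 without LIF and 18483 and 23255 with LIF on the J1 arrays; the sources do not place the probe set relative to the targeted part of the gene, so these cells are called knockout-labelled. The knockout-labelled arrays were all below the J1 arrays, at a log2 difference of -0.21 (SE 0.16) that was not called. Of the 8 embryonic stem cell markers, 7 had a mean log2 intensity of at least 7 over the arrays. The summed intensity of all 8 was 71941 to 91543 on the knockout-labelled arrays and 73867 to 98557 on the J1 arrays. The first arrays of both J1 groups stood apart in several genes from lists of other cell types, named after their values were seen. Krt8, a keratin in the trophoblast list, was at 6456 and 6655 there and 378 to 1658 on the other arrays. Vim, an intermediate filament gene in the fibroblast or feeder list, was at 9222 and 12149 there and 2574 to 7782 on the others. In the same list Col1a1 was at 493 and 419 there and lower on each of the other 6. Col1a2, also in that list, was at 615 and 497 there and 179 to 243 on the other 6. Sparc, in the extraembryonic endoderm list, was at 5271 and 5983 there and 2862 to 4686 on the other 6. Without Krt8 the summed intensity of the 9 other trophoblast markers was 716 and 970 on those 2 arrays and 620 to 963 on the other 6. Without Vim that of the 9 other fibroblast markers was 5893 and 5112 on those 2 arrays and 3575 to 5296 on the other 6. Most of that sum was Fn1, which overlapped, at 4292 and 3683 on those 2 arrays and 2792 to 4536 on the other 6. The sum therefore says little about Col1a1 and Col1a2, whose own values on those 2 arrays were above those on the other 6.

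All 18 probe sets passed the filter on dim values, an intensity of log2 4 or more on at least 2 arrays. Of these, 12 had a mean log2 intensity of at least 7, and they cover all 7 genes. The other 6 were dim: 2 of Tfcp2l1 (24.9 to 78.0 and 9.72 to 36.1), 3 of Tbx3 (30.3 to 111, 2.99 to 44.7 and 26.4 to 154) and 1 of Nr5a2 (62.5 to 149). The median intensity of all probe sets of an array was 114.2 to 143.5. Most values of these 6 probe sets lay below that range, and the 6 are given by counts below.

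Without LIF, Esrrb and Tfcp2l1 were the members whose 4 arrays all lay below the 4 arrays with LIF, and each had about 0.7 times the intensity. No probe set of the whole array passed an adjusted p of 0.05 for LIF withdrawal averaged over both lines (limma with Benjamini-Hochberg adjustment; 0.0% of 43439), so none of the 18 member probe sets did. At an unadjusted p under 0.05, 2 of 18 member probe sets were reached, against 4.02% of all tested, and these 2 were among the 12 brighter ones, against 1.13% of bright probe sets (log2 mean of 7 or more). The 2 of 18 became 0 when any 1 of 6 arrays was left out, 1 without the first J1 array with LIF and 3 without the first knockout-labelled array with LIF. The 4 arrays without LIF lay below the 4 with LIF for 2 of 18 member probe sets, against 1.33% of all and 1.11% of the bright ones, and above them for 0, against 1.02% of all. In a culture fewer cells of a type and less RNA per cell cannot be told apart by these values.

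Esrrb, an orphan nuclear receptor on chromosome 12, has 3 probe sets. Its brightest one, 1436926_at, gave 2499 and 2487 on the knockout-labelled arrays without LIF and 2101 and 1777 on the J1 arrays without LIF, against 2983 and 3653 on the knockout-labelled arrays with LIF and 2537 and 2708 on the J1 arrays with LIF. All 4 arrays without LIF were below all 4 with LIF, and the 4 group means stood in the order J1 without LIF, knockout-labelled without LIF, J1 with LIF, knockout-labelled with LIF, with no overlap between neighbours. The log2 change without LIF was -0.42 (SE 0.17, unadjusted p = 0.0459, adjusted p = 1.0 by limma), a fold of 0.746. It was -0.41 in knockout-labelled cells and -0.44 in J1 cells (SE 0.23 each), and the difference between these was 0.03 (SE 0.33).

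Esrrb probe set 1441921_x_at gave 1312 and 2287 on knockout-labelled and 1335 and 1039 on J1 arrays without LIF, against 2253 and 2791 on knockout-labelled and 1423 and 1238 on J1 arrays with LIF. Esrrb probe set 1422986_at gave 670.1 and 991 on knockout-labelled and 659 and 806 on J1 arrays without LIF, against 770.2 and 1176 on knockout-labelled and 878 and 1199 on J1 arrays with LIF. In both, the groups with and without LIF overlapped, and the averaged changes were -0.35 (SE 0.25) and -0.36 (SE 0.25). Over the 8 arrays the log2 values of the 3 Esrrb probe sets correlated at r of 0.79, 0.55 and 0.39, a description over arrays that share group and letter, so they did not report 1 common pattern.

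Tfcp2l1, a grainyhead-family transcription factor on chromosome 1, was read by 1418091_at. It gave 1599 and 1483 on knockout-labelled and 1283 and 1182 on J1 arrays without LIF, against 1991 and 1956 on knockout-labelled and 1621 and 2032 on J1 arrays with LIF. The highest array without LIF was 1599 and the lowest with LIF was 1621, so the separation rests on a narrow gap. The log2 change was -0.46 (SE 0.16, unadjusted p = 0.0327, adjusted p = 1.0 by limma), a fold of 0.728. It was -0.36 in knockout-labelled cells and -0.56 in J1 cells (SE 0.23 each), and the difference between these was 0.20 (SE 0.33).

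The windows upstream of these 2 genes are shown because theirs were the probe sets that separated the arrays by LIF, and because one of them holds the palindrome bound by Stat factors. Each is the 250 bases before an annotated transcript start, taken from RefSeq on GRCm38.p6, plus strand, with matches to the searched letters in capitals.
Esrrb, upstream start, chr12:86360867-86361116: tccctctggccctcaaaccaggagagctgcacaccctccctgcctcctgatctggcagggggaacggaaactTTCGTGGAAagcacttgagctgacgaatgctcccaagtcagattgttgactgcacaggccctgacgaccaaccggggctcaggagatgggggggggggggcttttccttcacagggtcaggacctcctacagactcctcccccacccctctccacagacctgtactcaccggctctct
Esrrb, downstream start, chr12:86421394-86421643: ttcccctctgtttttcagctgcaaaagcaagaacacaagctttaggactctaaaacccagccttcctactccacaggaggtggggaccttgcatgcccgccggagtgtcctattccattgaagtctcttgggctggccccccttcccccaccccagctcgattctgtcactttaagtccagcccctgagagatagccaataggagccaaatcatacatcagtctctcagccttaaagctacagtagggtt
Tfcp2l1, chr1:118627695-118627944: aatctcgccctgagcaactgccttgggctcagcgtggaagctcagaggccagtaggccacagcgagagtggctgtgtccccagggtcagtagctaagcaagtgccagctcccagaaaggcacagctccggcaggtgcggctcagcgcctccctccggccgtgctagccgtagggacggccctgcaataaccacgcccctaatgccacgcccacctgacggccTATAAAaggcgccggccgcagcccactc
The capitals in the upstream Esrrb window are a match to TTCNNNGAA, 178 to 170 bases before the start. Of the 7 member windows 1 holds these letters on either strand, against 7.02% of 32851 windows of the same length. The downstream Esrrb window and those of Tfcp2l1 and Gbx2 do not hold them. The capitals in the Tfcp2l1 window are a match to TATAAA, 28 to 23 bases before the start, which 12.4% of windows hold; of the 7 member windows 3 hold it, those of Tfcp2l1, Nr0b1 (32 to 27 bases before the start) and Nr5a2 (on the reverse strand, 181 to 176).

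RefSeq windows were matched for 5 of the 7 genes, 7 windows in all. The nuclear receptor half-site AGGTCA was found in 2 of the 7, those of Nr0b1 (126 to 121 bases before the start) and of Nr5a2 (64 to 59), against 14.0% of all windows. The longer half-sites AAGGTCA, which contains AGGTCA, and AAGGCCA, and the YY1 core AAGATGGC, were in 0 of 7, against 4.08%, 5.24% and 1.56% of all windows. A match is a string of letters in this window and not a measured binding site.

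Gbx2, a homeobox factor on chromosome 1, gave 1137 and 1282 on knockout-labelled and 1339.8 and 720.1 on J1 arrays without LIF, against 1483 and 1278 on knockout-labelled and 2138 and 1080.1 on J1 arrays with LIF. The groups overlapped throughout, and the first and second J1 arrays were far apart at both conditions. The averaged log2 change without LIF was -0.41 (SE 0.32), about the size of the Esrrb one but within the spread of the arrays.

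Tbx3, a T-box repressor on chromosome 5, was read by 1448029_at at 1090.4 and 1363 on knockout-labelled and 706 and 520.3 on J1 arrays without LIF, against 1286 and 1448 on knockout-labelled and 932 and 731 on J1 arrays with LIF. Within each line the arrays without LIF had the lower mean, but over both lines the LIF groups overlapped. The log2 change without LIF was -0.30 (SE 0.20) on average, -0.16 in knockout-labelled cells and -0.45 in J1 cells (SE 0.28 each), and the difference between lines was 0.28 (SE 0.40).

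The nuclear receptor pair Nr0b1 and Nr5a2 showed no separation by LIF. Nr0b1, on chromosome X, gave 4293 and 3586 on knockout-labelled and 3312 and 2492 on J1 arrays without LIF, against 4439.5 and 2614 on knockout-labelled and 3248 and 2523 on J1 arrays with LIF. Its averaged change of 0.10 (SE 0.25) made it the 1 gene of the 7 whose representative probe set (the brightest of the gene) was above 0. Nr5a2, on chromosome 1, gave 2751 and 4046 on knockout-labelled and 2605 and 3583 on J1 arrays without LIF, against 2606 and 5117 on knockout-labelled and 2312 and 4319 on J1 arrays with LIF, by 1420410_at. The changes of its 3 brighter probe sets were -0.09 (SE 0.35), -0.27 (SE 0.37) and -0.20 (SE 0.19).

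Prdm14, a PR-domain zinc finger protein encoded on chromosome 1, gave 509.5 and 411 on knockout-labelled and 387 and 412 on J1 arrays without LIF, against 572 and 539 on knockout-labelled and 494 and 433 on J1 arrays with LIF. The arrays with and without LIF overlapped by the first knockout-labelled array without LIF. The averaged change was -0.25 (SE 0.17).

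The sign of the averaged LIF change was below 0 for 16 of 18 member probe sets, against 51.1% of all tested, and for 11 of the 12 brighter ones, against 46.2% of the 21010 tested ones as bright (log2 mean of 7 or more). Probe sets of 1 gene share a transcript, so these are at most 7 separate readings; by representative probe set, 6 genes were below 0 and 1 above. The median change was -0.29 over the 12 brighter probe sets, against 0.02 over all bright probe sets. Arrays were also compared within line and letter, as a description only, since like-lettered arrays were not taken as pairs in the fit. In all 4 such comparisons 8 of 18 member probe sets, covering 5 genes, were lower without LIF, against 8.04% of all. They were also 8 of the 12 brighter ones, against 8.09% of these. They were all 3 of Esrrb, those of Tfcp2l1 and Prdm14, Tbx3 1448029_at, and 2 of Nr5a2. In the 4 pairs the difference ran from -0.61 to -0.26 for Esrrb 1436926_at, from -0.78 to -0.32 for Tfcp2l1 and from -0.49 to -0.09 for Tbx3 1448029_at.

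**Figure D1:**
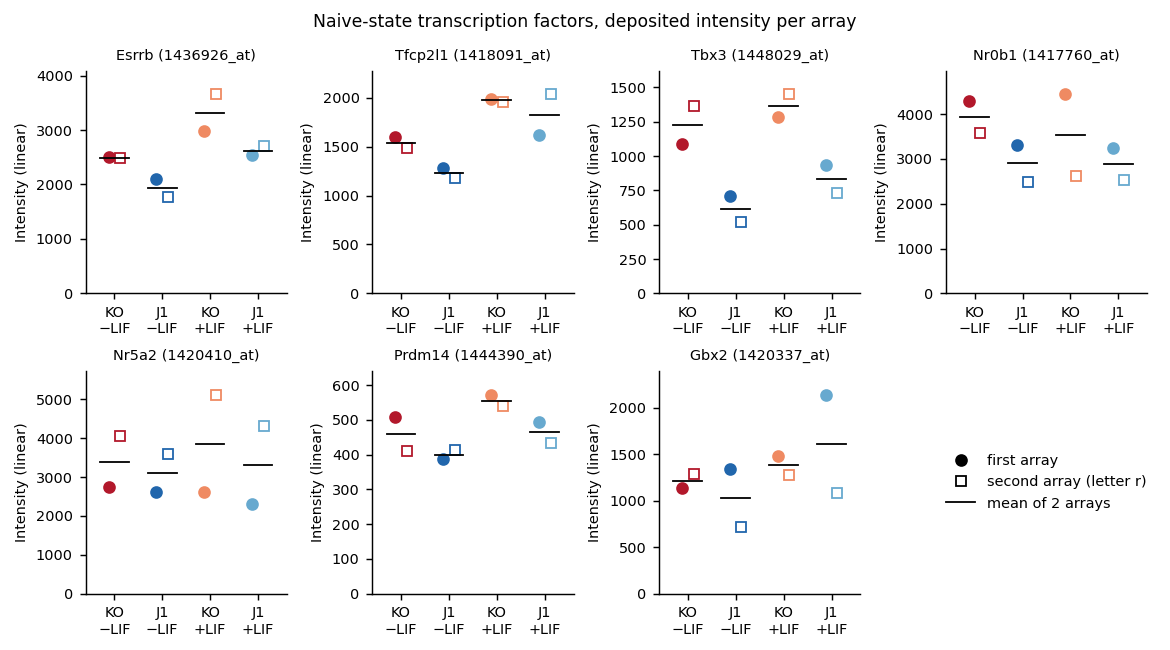
Deposited intensity (linear axis from 0) of the brightest probe set of each of the 7 genes on every array, by group (KO, knockout-labelled), with a point per array and a line at the group mean. The Esrrb and Tfcp2l1 points without LIF lie below those with LIF, and the Tbx3 points of knockout-labelled cells lie above those of J1 cells, while Nr0b1, Nr5a2 and Gbx2 points overlap between groups.

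Among genes of the LIF pathway the changes in value were uneven. Socs3, the feedback inhibitor induced by Stat3, gave 776 and 914 on knockout-labelled and 1549 and 364 on J1 arrays without LIF, against 7052 and 6546 on knockout-labelled and 6253 and 5505 on J1 arrays with LIF, a log2 change of -2.99 (SE 0.47, adjusted p = 0.701 by limma, not called). Of 22 measured genes of the wider network, 20 were below 0 without LIF and 2 above, with a median of -0.12. Of these genes 3 had an unadjusted p under 0.05 by limma (Socs3, Stat3 at -1.13, SE 0.26, and Klf4 at -0.85, SE 0.24) and 0 were called. Of all bright probe sets, 46.2% were below 0 and 1.13% had an unadjusted p under 0.05. The receptor genes Lifr and Il6st (gp130) had -0.30 (SE 0.16) and -0.03 (SE 0.22). The core factors moved little in value, with -0.10 (SE 0.15) for Pou5f1, -0.09 (SE 0.17) for Sox2 and -0.27 (SE 0.22) for Nanog.

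Of 10 measured genes that the members are known to repress or that mark the later epiblast, 7 were above 0 without LIF and 3 below, with a median of 0.33; 0 were called. The 3 with an unadjusted p under 0.05 were all above 0. Of all probe sets tested, 51.1% were below 0 and 4.02% had an unadjusted p under 0.05 by limma. Otx2, a homeobox factor of the formative epiblast, had 1.18 (SE 0.38), and Lef1, a Wnt effector, had 0.86 (SE 0.31). Dnmt3a, a de novo DNA methyltransferase, had 0.65 (SE 0.16). Of the related genes in the list, Dnmt3b had 0.27 (SE 0.27) and Dnmt3l -0.04 (SE 0.19). Fgfr1 had 0.39 (SE 0.19) and Fgf5 -0.36 (SE 0.91). Lef1 and Fgf5 were the 2 dim genes of the list, with mean log2 values of 6.96 and 4.16. Dnmt3a gave 1819.9 and 1674 on knockout-labelled and 2478 and 2312 on J1 arrays without LIF, against 1146 and 941 on knockout-labelled and 1692 and 1573 on J1 arrays with LIF.

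In the comparison of the knockout-labelled line with J1, averaged over LIF, Tbx3 was the member whose arrays separated by line. The 4 knockout-labelled arrays lay above the 4 J1 arrays for both brighter Tbx3 probe sets and for no other member probe set (2 of 18, against 2.1% of all tested and 2.42% of the bright ones), and below them for 0 (against 1.74%). No probe set was called at an adjusted p of 0.05 (0.0% of 43439), and 4 of 18 member probe sets had an unadjusted p under 0.05, against 5.27% of all: 3 of Tbx3, 1 of them dim, and Esrrb 1441921_x_at. The 3 bright ones were 3 of 12, against 2.8% of bright probe sets. The 4 of 18 became 1 when the second array of any group was left out.

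For Tbx3 1448029_at the intensity averaged 1297 ± 153 over the 4 knockout-labelled arrays and 722 ± 169 over the 4 J1 arrays (SD), a log2 difference of 0.87 (SE 0.20, unadjusted p = 0.00577, adjusted p = 0.794 by limma), or 1.82-fold. The difference was 1.01 without LIF and 0.73 with LIF (SE 0.28 each). Tbx3 1437479_x_at gave 457 and 627 on knockout-labelled and 336 and 210.2 on J1 arrays without LIF, and 467 and 613 on knockout-labelled and 412 and 329.6 on J1 arrays with LIF. Its difference was 0.77 (SE 0.25, adjusted p = 0.898 by limma), 1.01 without LIF and 0.54 with LIF (SE 0.35 each). The 2 probe sets correlated at r = 0.97 over the 8 arrays, and they read the same gene, so they are not separate evidence.

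The size of the Tbx3 difference was unlike between first and second arrays. For 1448029_at the knockout-labelled array exceeded the J1 array by 0.63 without LIF and 0.46 with LIF among the first arrays, and by 1.39 and 0.99 among the second arrays. The first J1 arrays also stood apart in Krt8, Vim, Col1a1, Col1a2 and Sparc, with the values given above. The part of these genes in the split was not tested. Tbx3 also has a role in extraembryonic endoderm: of 10 markers of that tissue, 6 had a mean log2 under 7, 8 were above 0 in the knockout-labelled cells and 2 below, and Sox17 (0.84, SE 0.19, adjusted p = 0.754 by limma) and Sox7 (0.80, SE 0.29), both dim, had an unadjusted p under 0.05. Of all probe sets tested, 52.1% were above 0 in this comparison and 5.27% had an unadjusted p under 0.05 by limma. The 4 brighter markers had differences of -0.42 (SE 0.36) for Gata6, 0.25 (SE 0.38) for Dab2, 0.18 (SE 0.23) for Lama1 and 0.09 (SE 0.31) for Sparc. The summed intensity of all 10 was 5453 to 6518 on knockout-labelled and 4029.6 to 7389 on J1 arrays, and none was listed at 0. Without Sparc that of the 9 others was 1305 to 1832 on knockout-labelled and 1112 to 1692 on J1 arrays. The part of these markers in the Tbx3 difference was not tested.

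Esrrb gave unlike differences by probe set in the same comparison, 0.74 (SE 0.25, adjusted p = 0.899 by limma) for 1441921_x_at, 0.35 (SE 0.17) for 1436926_at and 0.03 (SE 0.25) for 1422986_at. For the other genes the differences were within about 2 SE of 0, at 0.35 (SE 0.25) for Nr0b1, 0.23 (SE 0.17) for Prdm14, 0.22 (SE 0.16) for Tfcp2l1, 0.08 (SE 0.32) for Gbx2, and 0.17 (SE 0.35), 0.11 (SE 0.37) and 0.30 (SE 0.19) for the brighter probe sets of Nr5a2.

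All 12 brighter member probe sets had a difference above 0, against 48.3% of bright probe sets, and 17 of all 18 did, against 52.1%. The median over the 12 was 0.26, against -0.01 over all bright probe sets. Arrays of like LIF condition and letter were compared too, again as a description only. In all 4 such comparisons the knockout-labelled array was higher for 8 of 18 member probe sets, covering 4 genes, against 9.19% of all. It was higher for 7 of the 12 brighter ones, against 9.98%. The wider network was divided in sign, with 11 of 22 genes above 0 and 11 below and a median of 0.00. The later epiblast list had 9 of 10 below 0, with a median of -0.22; Dnmt3a, at -0.55 (SE 0.16, adjusted p = 0.871 by limma), was the 1 with an unadjusted p under 0.05.

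**Figure D2:**
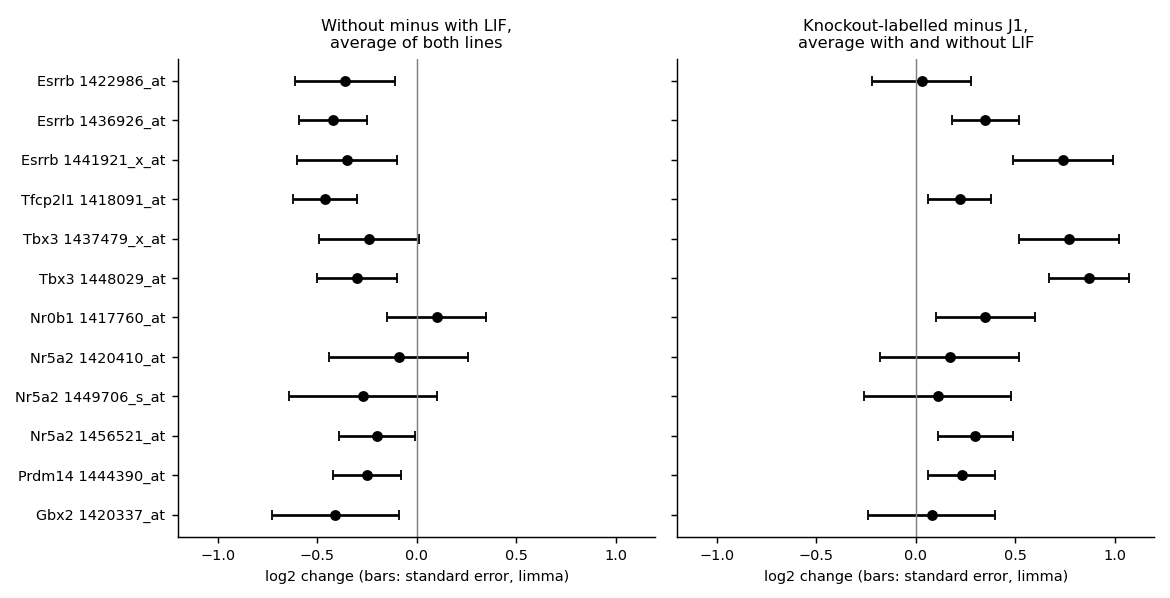
Log2 change of each of the 12 brighter member probe sets, for LIF withdrawal (without minus with LIF) and for line (knockout-labelled minus J1), each averaged over the other factor, with bars of 1 standard error. The LIF changes lie below 0 except that of Nr0b1, at 0.10, and the line differences lie above 0, with the 2 Tbx3 probe sets at 0.87 and 0.77.

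Both signs together placed the J1 cells without LIF lowest. Their group mean was the lowest of the 4 for 11 of the 12 brighter member probe sets, covering 6 genes, against 21.7% of bright probe sets, the exception being Nr0b1. The knockout-labelled cells with LIF had the highest mean for 8 of 12, covering 5 genes, against 25.4%. This follows from the signs already given and is no separate result. No member had an interaction of line and LIF at an unadjusted p under 0.05 (0 of 18, against 3.55% of all; 0 called by limma, 0.0% of all). Within lines, LIF withdrawal reached an unadjusted p under 0.05 for 0 member probe sets in knockout-labelled cells (4.07% of all) and 0 in J1 cells (3.61%); the line difference reached it for 2 without LIF (3.68%) and 3 with LIF (5.02%), and 0 of these were called (0.0% of all in each).

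**Figure D3:**
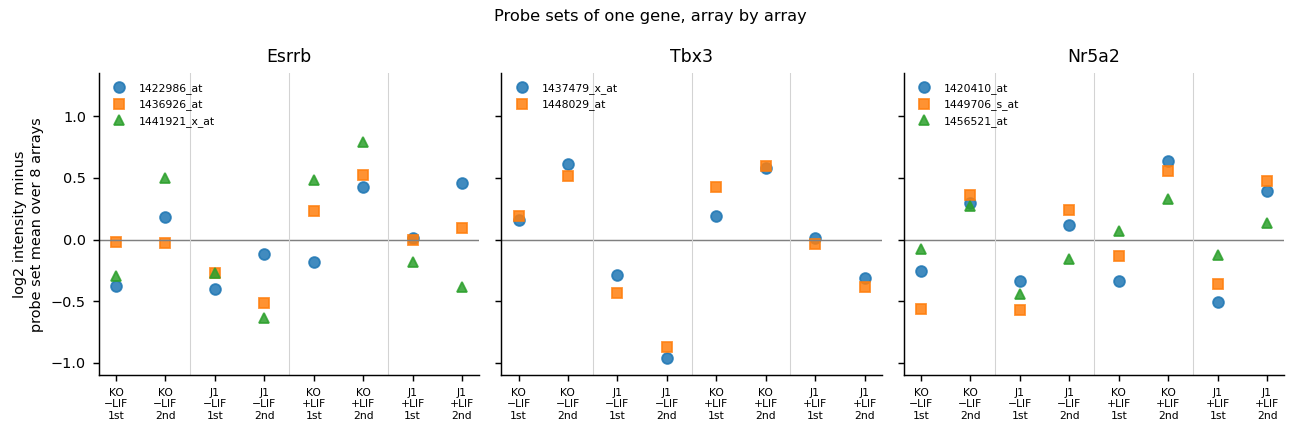
Log2 intensity of the brighter probe sets of Esrrb, Tbx3 and Nr5a2 on every array, each centred on its own mean over the 8 arrays, with a symbol per probe set. The 2 Tbx3 probe sets run together (r = 0.97), the 3 of Nr5a2 are higher on the second array of each group, and those of Esrrb part from each other.

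Nr5a2 differed between the first and second array of every group. The second array was higher in all 4 groups for its 3 brighter probe sets, by 0.46 to 0.97 for 1420410_at, 0.69 to 0.93 for 1449706_s_at and 0.26 to 0.36 for 1456521_at, and also for Esrrb 1422986_at, by 0.29 to 0.61. These were 4 of 18 member probe sets, against 16.7% of all tested, and 4 of the 12 brighter ones, against 19.5% of bright probe sets. Nr0b1 went the other way, with the second array lower by log2 values of -0.76 to -0.26 (1 of 18, against 11.2% of all, and 1 of 12, against 17.8% of the bright ones). Consistent steps between first and second arrays were thus common over the whole array, and these values are given as a description of the spread behind the Nr5a2 and Nr0b1 results. The labels do not say what the letter marks. For Nr5a2 1449706_s_at the arrays without LIF were 412 and 784 for knockout-labelled and 409 and 719 for J1 cells, against 555 and 898 for knockout-labelled and 473 and 845 for J1 cells with LIF. For Nr5a2 1456521_at they were 1355 and 1735 for knockout-labelled and 1054 and 1281 for J1 cells, against 1501 and 1805 for knockout-labelled and 1314 and 1573 for J1 cells with LIF. Within a letter both were lower without LIF in each line.

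**Figure D4:**
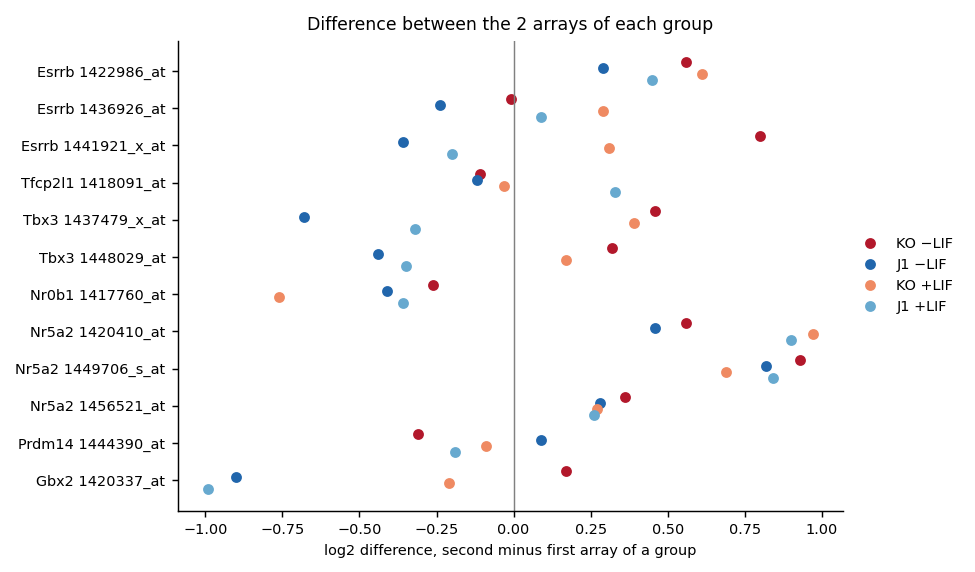
Second minus first array, in log2 intensity, within each of the 4 groups for each of the brighter member probe sets. The Nr5a2 points lie above 0 in every group, those of Nr0b1 below 0, and those of Tbx3 lie above 0 in the knockout-labelled groups and below 0 in the J1 groups.

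Across the 8 arrays Esrrb varied with Tfcp2l1 (r = 0.89), Tbx3 (0.81) and Prdm14 (0.74), and Tfcp2l1 with Prdm14 (0.71), whereas Nr0b1 and Nr5a2 ran opposite (-0.63); these are descriptions of arrays that share group and letter. Among 8358 genes, those most like Esrrb in pattern were Syngr1 (r = 0.945) and Slc25a20 (0.944), and those most like Tfcp2l1 were Jak3 (0.945) and Syngr1 (0.936). The nearest to Tbx3 were Ppm1f (0.969) and Zfp560 (0.958), and the nearest to Prdm14 were Acadm (0.946) and Kat6b (0.916). Nr5a2 was most like Tube1 (0.99) and Ank (0.985), Nr0b1 most like Fhl1 (0.97) and Stam (0.969), and Gbx2 most like Ric8a (0.948) and H13 (0.938). With 8 arrays and this many genes, values of this size are found for each member.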

How the data were processed

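The authors deposited 1 linear intensity for each probe set on each of the 8 arrays; per the submitters' processing notes GCRMA was named, with no version or role, and since the deposited intensities are not logged the step that made them is not known. No detection call was used, so low values hold an unknown share of background. Probe sets were named from the platform annotation, which lists 1 symbol for 34945, several for 932 and none for 9160 of 45037; all 18 member probe sets had 1.

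Intensities were turned to log2 with no pseudocount. Probe sets at log2 4 or more on at least 2 arrays (43439) were fitted with limma 3.58.1 in R 4.3.3, 1 mean per group over all 8 arrays, eBayes without trend, Benjamini-Hochberg adjustment within each of 7 contrasts, and a threshold of 0.05. Changes are without minus with LIF and knockout-labelled minus J1. The p-values cover the spread between the 2 arrays of a group, which the series text calls biological replicates, and precision is limited by having 2 arrays a group. The fit was tested on simulated data. Figures and counts were made in Python 3.11.15 with matplotlib 3.10.9.

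All member probe sets were named. The brightest stood for its gene. The 2 genes of highest Pearson r with each member were named, among genes whose mean log2 reached 8. The members, gene lists and markers were chosen with earlier results of these data known. Over all 43439 probe sets tested, dim ones included, like-lettered arrays correlated in their deviations from the group means at r of 0.0496 to 0.198. They were not taken as pairs. Among bright probe sets the second array was above the first in all 4 groups for 19.5% and below it for 17.8%. Alternatives were the filter, quantile normalization, 16 added before log2, a trended and robust prior, a block, a threshold of 0.1, only the 2 groups compared, and each array left out; counts of signs under quantile normalization and with arrays left out were added after seeing the data.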

Additional observations from a re-analysis of the deposited data

How the results depend on the processing

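No member probe set was called under any alternative run. Over all probe sets 0 were called in each comparison, except 1 for knockout-labelled against J1, averaged over LIF, with a trended and robust prior. With a replicate block by array letter, 0 member probe sets were called in every comparison and all 84 changes of the 12 brighter member probe sets over 7 comparisons kept their sign; the Tbx3 1448029_at line difference had an adjusted p of 0.605 by limma with the block, against 0.794 without it and 0.335 with the trended and robust prior. Quantile normalization turned 1 of the 84, Tbx3 1437479_x_at without LIF in knockout-labelled cells (-0.07, against 0.00), and 16 added before log2 turned 0.

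Leaving out each array in turn turned 70 of 480 changes, and the cause was not tested. Of these sign changes 23 fell on 9 values given in the text and 47 on other values of the single comparisons, which are not printed. The 9 ran from -0.13 to 0.18 for Esrrb 1422986_at, -0.08 to 0.41 for Nr5a2 1420410_at, -0.12 to 0.35 for Nr5a2 1449706_s_at and -0.17 to 0.32 for Gbx2 in the averaged line comparison; from -0.09 to 0.30 for Nr0b1 and -0.33 to 0.15 for Nr5a2 1420410_at in the averaged LIF comparison; and from -0.11 to 0.18 for the interaction of Esrrb 1436926_at, -0.04 to 0.28 for Tfcp2l1 between lines with LIF, and -0.23 to 0.23 for Tbx3 1437479_x_at without LIF in knockout-labelled cells. The leading values kept their sign: -0.50 to -0.35 for Esrrb 1436926_at and -0.54 to -0.38 for Tfcp2l1 without LIF, and 0.76 to 0.98 for Tbx3 1448029_at and 0.60 to 0.94 for 1437479_x_at between lines. Of the 12 brighter probe sets 10 to 11 stayed below 0 without LIF and 9 to 12 above 0 between lines. Where an array is left out, its group holds 1 array, whose spread is then taken from the other groups. Signal near the array median has an unknown background.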

Other observations

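Paralogs of the members were divided in sign. Of 9 measured, 5 were below 0 and 4 above without LIF, with a median change of -0.07, and 3 were below 0 and 6 above in the knockout-labelled line, with a median of 0.10; 0 were called in either comparison by limma, and at an unadjusted p under 0.05 it was 1 and 0. Of all probe sets tested, 4.02% in the LIF comparison and 5.27% in the line comparison had an unadjusted p under 0.05 by limma. Ubp1, a relative of Tfcp2l1, had a log2 change of 0.08 (SE 0.19) without LIF, and Esrra, a relative of Esrrb, had -0.20 (SE 0.29). Tbx2, the paralog of Tbx3, was dim, with a mean log2 of 3.83, so its change of -1.49 (SE 0.55) rests on signals below the filter's floor on average.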
